A study of Mus musculus with 4 samples.

Results

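The claudins, Ocln and Tjp1 of the barriers of peripheral nerve were followed through single cells of skeletal muscle. The 9 genes (Cldn1, Cldn5, Cldn10, Cldn11, Cldn12, Cldn15, Cldn19, Ocln and Tjp1) were taken by symbol from the 32285 genes of the count tables, and all 9 had unique molecular identifiers (UMIs) in each of the 4 libraries. Tibialis anterior and gastrocnemius muscles of 2-month-old male mice were digested, and living (propidium iodide-negative) cells were sorted into GFP+ and GFP- fractions. All mice carried the S100GFPtg transgene, in which the promoter of S100B, a gene of glia and of some other cells, drives GFP. The control mice were S100GFPtg with intact Sod1 (WT) and the others were S100GFPtg Sod1-/- (Sod1KO), the knockout of the antioxidant enzyme superoxide dismutase 1. Each genotype was 1 pool of 4 mice and gave 1 GFP+ and 1 GFP- library, so there were no replicates and no test could be made. Every interval below is an exact 95% interval that covers counting error only, and a difference between libraries cannot be told apart from a difference between pools or preparations.

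Sod1 did not separate the libraries by their labels. Its level in CPM (UMIs per 1000000 UMIs) was 91.1 for WT and 98.0 for Sod1KO in the GFP+ sort, and 123 for WT and 113 for Sod1KO in the GFP- sort. The reads are tags of the 3' end and no source used here gives the position of the deletion, so this level may check nothing, and Sod1KO stands below for the library labelled Sod1KO. The libraries held 2052 to 7267 barcodes, with a median of 6153 to 13826 UMIs, and any pair of them shared 1 to 13 barcode sequences, at most 0.341% of the smaller library. After filtering, 1638 to 5925 cells per library were clustered without the 9 genes and without the other listed tight junction genes, and clusters were named from marker lists. Clusters that received no name took 19.1% (WT) and 18.4% (Sod1KO) of the kept GFP+ cells and 58.8% (WT) and 34.0% (Sod1KO) of the kept GFP- cells. These shares leave out the mixed cluster described below, which took a further 6.82% (WT) and 5.38% (Sod1KO) of the kept GFP+ cells.

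Tight junctions seal the space between neighbouring cells: claudins and Ocln (occludin) span the membrane and meet their partners on the next cell, and adaptors such as Tjp1 (ZO-1) tie them to the actin skeleton. A peripheral nerve is shielded by several such seals. The perineurium, layers of flattened cells around each fascicle, forms a diffusion barrier, endoneurial vessels form a blood-nerve barrier, and myelinating Schwann cells join the layers of their own membrane to one another by autotypic junctions in the uncompacted parts of the myelin sheath. Cldn19 is known from those Schwann cell junctions, Cldn1 from perineurium and epithelia, Cldn5 from endothelium, and Cldn11 from central myelin and other tissues.

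The named classes were myelinating Schwann cell-like (mSC-like) cells, with 1076 members in WT GFP+ against 657 in Sod1KO GFP+, terminal Schwann cell-like (tSC-like) cells, with 380 and 885, perineurial-like cells, with 42 and 95, endothelial-like cells, with 307 and 302, and fibroblast-like cells, with 265 and 669. In the GFP- libraries the endothelial-like class had 492 cells in WT and 1598 in Sod1KO, the fibroblast-like class 37 and 724, and the perineurial-like class 6 and 109. Schwann-like cells were nearly absent there, with 4 and 3 mSC-like and 0 and 7 tSC-like cells. One further cluster of 311 WT GFP+ and 319 Sod1KO GFP+ cells carried 11 of 11 mSC markers and 8 of 10 perineurial markers at once, and is treated apart below as the mixed cluster. Checked against its markers, the main mSC-like cluster passed 11 of 11 mSC markers, the perineurial-like cluster 9 of 10 and the main tSC-like clusters 10 and 8 of 12. The perineurial-like cluster was led by Lypd2, Msln, Hcn4 and Krt19.

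The promoters of the 3 claudins that each led another class are shown because the genes parted so sharply between the named classes. Each sequence is the 250 bases before the transcript start in RefSeq on build GRCm38.p6, read 5′ to 3′ on the strand of the gene, and capitals mark the matches on either strand to 5 short motifs. The GC box was searched as GGGCGG, and the CCAAT box and TATA box as CCAAT alone and as TATAAA in full. The core bound by EGR factors was searched as GTGGGCG, a motif that can overlap a GC box, and the core shared by SOX and TCF factors as ACAAAG on both strands. Cldn1 lies on the minus strand at chr16:26371840-26372089, the first of 2 listed starts of Cldn19 on the plus strand at chr4:119255191-119255440, and Cldn5 on the plus strand at chr16:18776597-18776846.
Cldn19: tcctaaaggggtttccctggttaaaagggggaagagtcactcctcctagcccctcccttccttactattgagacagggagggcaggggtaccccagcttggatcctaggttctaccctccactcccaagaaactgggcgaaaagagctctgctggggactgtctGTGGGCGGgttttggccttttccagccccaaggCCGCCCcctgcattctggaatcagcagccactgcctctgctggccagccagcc
Cldn1: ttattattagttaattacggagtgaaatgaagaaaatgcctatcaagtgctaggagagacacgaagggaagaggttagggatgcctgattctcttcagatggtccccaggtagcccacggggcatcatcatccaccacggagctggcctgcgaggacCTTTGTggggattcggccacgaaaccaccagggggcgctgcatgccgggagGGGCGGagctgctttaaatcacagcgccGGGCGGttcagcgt
Cldn5: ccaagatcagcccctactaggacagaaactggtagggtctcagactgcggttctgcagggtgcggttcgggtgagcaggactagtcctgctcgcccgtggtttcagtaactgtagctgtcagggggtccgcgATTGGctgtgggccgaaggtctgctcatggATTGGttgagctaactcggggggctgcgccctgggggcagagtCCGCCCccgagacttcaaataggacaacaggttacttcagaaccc

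The Cldn19 window held 2 GC boxes, 1 of them overlapping the single EGR core match. In the Cldn1 window there were 2 GC boxes and 1 SOX or TCF core, and in the Cldn5 window 1 GC box and 2 CCAAT boxes. None of these windows held TATAAA. Among all 32851 RefSeq windows of the same length, 32.7% held a GC box, 33.8% a CCAAT box, 12.4% a TATA box, 7.02% an EGR core and 16.5% a SOX or TCF core. Over the 9 genes, 8 had a GC box in at least 1 listed window, 2 (Cldn10 and Cldn19) an EGR core and 0 a TATA box. A CCAAT box was in a listed window of Cldn5, Cldn10, Cldn11, Cldn12 and Ocln, and a SOX or TCF core in one of Cldn1 and Cldn10. A gene had 1 to 3 listed windows, so these counts per gene are not like the shares per window above. These matches describe letters only.

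Cldn19, the claudin of peripheral myelin, had its highest level in mSC-like cells. They held 6915 of the 9847 Cldn19 UMIs of WT GFP+ and 4374 of the 6864 of Sod1KO GFP+, and the mixed cluster 2749 and 1851. Its level there was 975 CPM (interval 952 to 998) in WT GFP+ and 993 (964 to 1023) in Sod1KO GFP+, a log2 ratio of 0.03 (−0.03 to 0.08). The mixed cluster, kept apart from the compared classes, had 453 CPM in WT GFP+ and 245 in Sod1KO GFP+. Among the compared classes the next in WT GFP+ was the perineurial-like one, at 12.3 CPM from 5 UMIs, which left mSC-like cells 79.4-fold higher. In Sod1KO GFP+ the next class was tSC-like, at 35.9 CPM, and mSC-like cells were 27.7-fold higher. After each cell was thinned to 1000 UMIs, a Cldn19 UMI remained in 61.7% (58.7 to 64.6) of WT and 61.5% (57.6 to 65.2) of Sod1KO mSC-like cells of the GFP+ sort, against 0 of 307 and 0 of 302 endothelial-like cells, which should lack it; a count of 0, taken as allowing 3 cells, leaves shares of up to 0.977% and 0.993%. Without thinning, the shares were 98.3% and 96.5% in mSC-like cells (with a median of 6238 and 6118 UMIs per cell) and 2.28% and 0.662% in endothelial-like cells (11393 and 11405). Of 2 mSC-like clusters, the larger held Cldn19 at 983 and 1027 CPM and the smaller, with 26 and 41 cells, at 472 and 354 CPM. With each cell assigned on its own by its markers, which leaves no mixed cluster, the lead of mSC-like cells over the next class was 1.12 and 1.99 on the log2 scale.

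Terminal Schwann cells cover the nerve ending at the neuromuscular junction. The tSC-like class was named from markers alone, and the place of its cells along the nerve was not tested. In tSC-like cells Cldn19 was at 10.1 CPM (7.70 to 13.0) in WT GFP+ and 35.9 (32.4 to 39.6) in Sod1KO GFP+, a 3.55-fold difference (log2 1.83, 1.43 to 2.25). Different clusters made up this class in the 2 libraries. Cluster 10, led by Ucn2, Btc and Kcnj10, had 34 WT GFP+ and 557 Sod1KO GFP+ cells, whereas cluster 11, led by Unc80, Bche and Ajap1, had 305 and 210. Within cluster 10, Cldn19 was at 70.2 CPM (41.6 to 111) in WT and 49.7 (44.6 to 55.1) in Sod1KO, and within cluster 11 at 2.59 (1.42 to 4.35) and 4.32 (2.30 to 7.39). Cluster 33, led by Gfra3, Tenm1 and Sgcz and with 28 and 30 cells, had 117 CPM (78.0 to 170) against 32.2 (13.9 to 63.4), so the higher level of the class in Sod1KO was not found within clusters 10 and 33. With the clusters that were over 80% of 1 library left out, the log2 ratio of the class was −0.21. In cluster 33 the 11 mSC markers were summed to 6460 CPM, against 1899 in cluster 10 and 1573 in cluster 11, and the part of these markers in the Cldn19 level was not tested.

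Cldn11, the claudin of oligodendrocyte myelin, was low in Schwann-like cells. It stood at 3.67 CPM in mSC-like cells of WT GFP+ and 2.50 in Sod1KO GFP+. In tSC-like cells it was at 2.86 CPM (1.67 to 4.58) and 12.9 (10.9 to 15.2), a log2 ratio of 2.17 (1.44 to 2.99). Cluster 10 held most of it, with 134 of the 140 UMIs of Sod1KO and 12 of the 17 of WT. Inside that cluster the direction was the opposite, at 46.8 CPM (24.2 to 81.7) in WT and 18.8 (15.8 to 22.3) in Sod1KO (log2 −1.32, −2.17 to −0.33). The highest level of Cldn11 in any named class was in lymphatic endothelial-like cells, at 115 CPM (100 to 131) in 107 cells of Sod1KO GFP- and 70.4 (45.1 to 105) in 15 cells of WT GFP-. Perineurial-like cells had 14.7 CPM in Sod1KO GFP-, but its 33 UMIs came from 8 of 109 cells and 2 of these cells held over 50% of them.

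**Figure D1:**
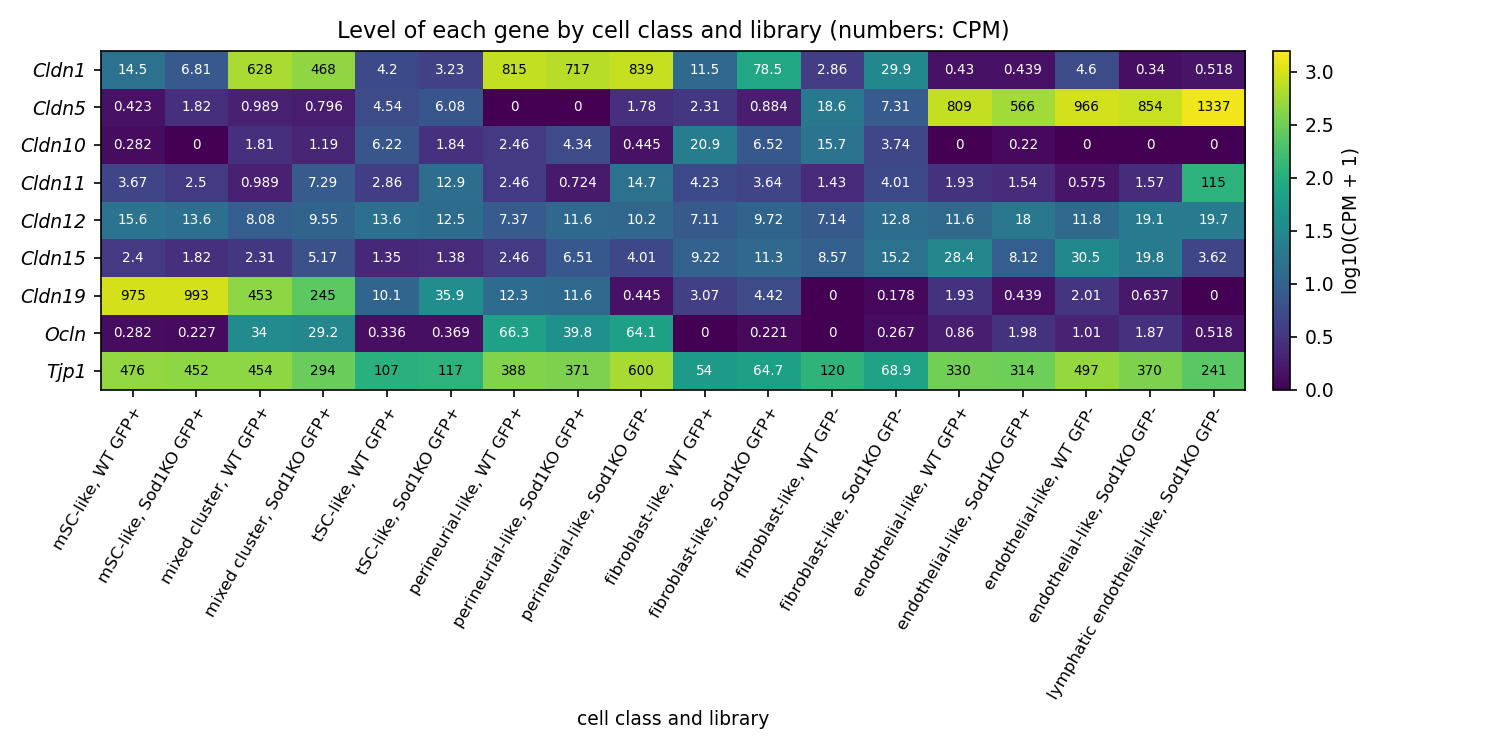
Level of each of the 9 genes (vertical) in each cell class and library (horizontal), with the CPM written in each cell and the colour giving log10(CPM + 1). Cldn19 is bright in mSC-like cells (975 and 993 CPM), Cldn1 in perineurial-like cells (717 to 839 CPM) and Cldn5 in endothelial-like cells (566 to 966 CPM), and the mixed cluster is bright for both Cldn19 and Cldn1.

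Cldn1 had its highest level in perineurial-like cells, named from markers of the sleeve of the nerve fascicle. It was at 815 CPM (730 to 908) in WT GFP+, 717 (673 to 763) in Sod1KO GFP+ and 839 (801 to 878) in Sod1KO GFP-. In WT GFP-, 6 cells gave 818 CPM (693 to 959). The 4 libraries thus lay between 717 and 839 CPM, and the log2 ratio between the GFP+ libraries was −0.18 (−0.37 to −0.00078), which turned to 0.07 under the stricter filter. The mixed cluster, kept apart from the compared classes, had 628 CPM in WT GFP+ and 468 in Sod1KO GFP+. It held 3810 of the 4401 Cldn1 UMIs of WT GFP+ and 3527 of the 5400 of Sod1KO GFP+, against 332 and 991 in perineurial-like cells. Among the compared classes, perineurial-like cells exceeded the next one 56.1-fold in WT GFP+ (mSC-like, 14.5 CPM), 9.13-fold in Sod1KO GFP+ and 28.1-fold in Sod1KO GFP-. In both Sod1KO libraries the next class was the fibroblast-like one, but only 3 classes were compared in Sod1KO GFP-. Thinned shares with a Cldn1 UMI were 57.1% (41.0 to 72.3), 46.3% (36.0 to 56.8) and 56.0% (46.1 to 65.5) in the same 3 libraries, and the unthinned ones 100%, 97.9% and 100% (9284, 12644 and 18544 UMIs in the middle cell). Endothelial-like cells, as a class that should lack Cldn1, had thinned shares of 0%, 0.331%, 0.813% and 0.0626% in WT GFP+, Sod1KO GFP+, WT GFP- and Sod1KO GFP-, and unthinned ones of 0.651%, 0.662%, 4.47% and 0.188% (median depths of 10996 to 12331 UMIs).

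Ocln, the membrane partner of claudins in many barriers, followed Cldn1 at a lower count. Its level in perineurial-like cells was 66.3 CPM (43.7 to 96.4) in WT GFP+, 39.8 (30.0 to 51.8) in Sod1KO GFP+ and 64.1 (54.1 to 75.5) in Sod1KO GFP-, while 4 UMIs gave 21.7 in WT GFP-. Of the other compared classes, endothelial-like cells came next, at 0.860, 1.98 and 1.87 CPM, which is 77.1-fold, 20.2-fold and 34.3-fold lower. The last of these leads, in Sod1KO GFP-, was over 3 classes only. Every perineurial-like cell with an Ocln UMI also had a Cldn1 UMI (19 of 19 in WT GFP+, 40 of 40 in Sod1KO GFP+ and 61 of 61 in Sod1KO GFP-), in a class where nearly every cell had Cldn1. Between the GFP+ libraries the log2 ratio of Ocln was −0.74 (−1.43 to −0.01), and −0.07 with each cell assigned on its own. The 10 perineurial markers used for naming, summed, were at 4569 CPM (WT) and 2414 (Sod1KO) in the GFP+ sort and at 9261 (WT) and 7158 (Sod1KO) in the GFP- sort, so they too were lower in Sod1KO GFP+, and their part in the Ocln value was not tested. Cldn5, the endothelial claudin, was at 0 UMIs in the perineurial-like cells of 3 libraries and at 1.78 CPM in Sod1KO GFP-.

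**Figure D2:**
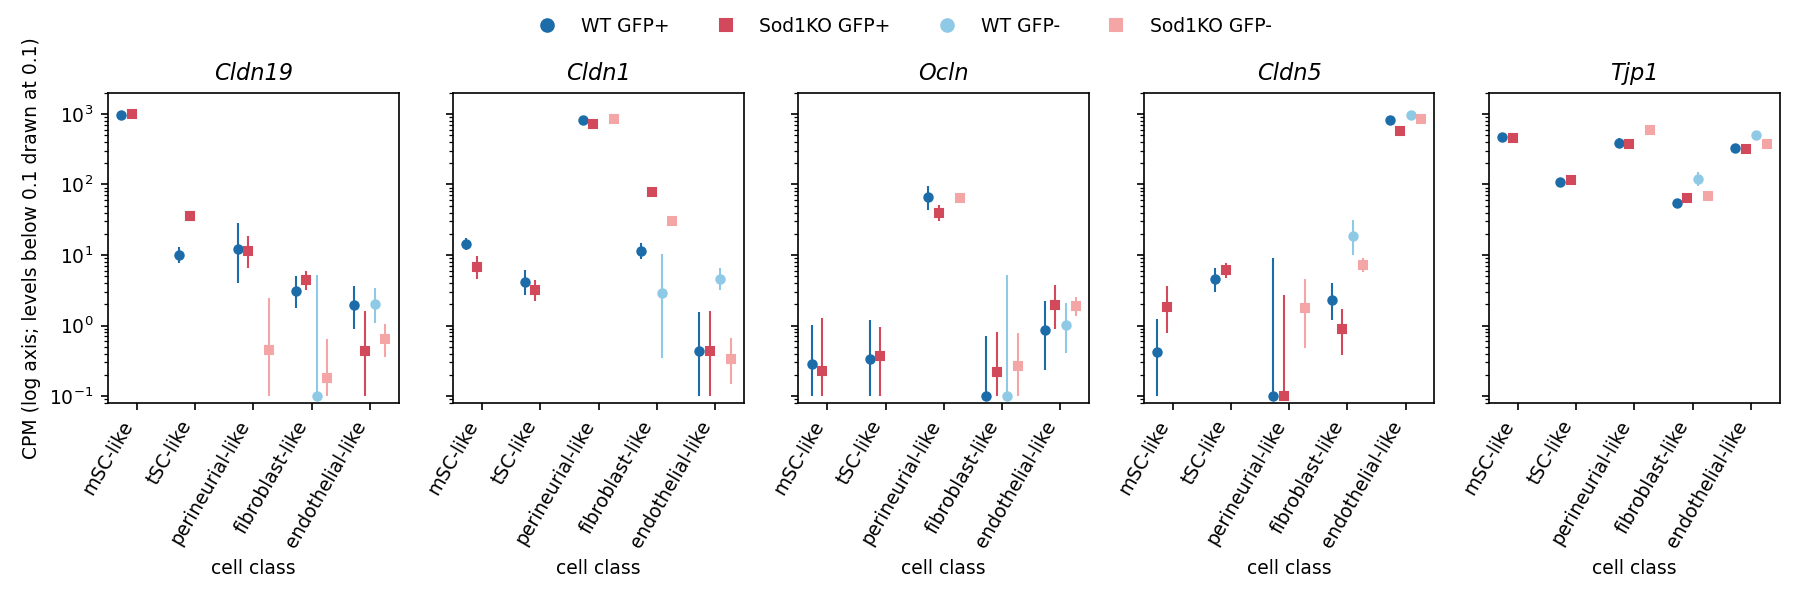
CPM on a log axis (levels below 0.1 are drawn at 0.1) for Cldn19, Cldn1, Ocln, Cldn5 and Tjp1 in the 5 compared classes, 1 point per library with at least 30 cells of the class and bars for the exact 95% Poisson interval. In the GFP+ libraries each of the first 4 genes has 1 class far above the others, whereas Tjp1 spans 54.0 to 600 CPM over all classes.

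The mixed cluster held both nerve claudins in the same cells. Cldn1 was at 628 CPM (609 to 649) in WT GFP+ and 468 (452 to 483) in Sod1KO GFP+, Cldn19 at 453 (437 to 471) and 245 (234 to 257), and Ocln at 34.0 (29.5 to 38.9) and 29.2 (25.4 to 33.3). UMIs of both Cldn1 and Cldn19 were found in 297 of 311 cells in WT and in 230 of 319 in Sod1KO. Among cells with at least 5 UMIs of the pair, Cldn19 made up 10 to 90% of the pair's UMIs in 94.1% and 70.4% of mixed cells, but in 6.58% and 2.84% of mSC-like and 5.88% and 5.63% of perineurial-like cells. The middle mixed cell had 41.4% of the pair as Cldn19 in WT and 29.7% in Sod1KO. Its cells were deep, with median totals of 18270 and 20968 UMIs, against 6238 and 6118 in mSC-like and 9284 and 12644 in perineurial-like cells. Their mSC markers were summed to 17878 CPM in WT and 9164 in Sod1KO and their perineurial markers to 3100 and 1612. Doublets were removed by a score before clustering, only 2 of the cluster's 632 cells came from GFP- libraries, and whether its cells are single cells or joined ones was not tested.

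**Figure D3:**
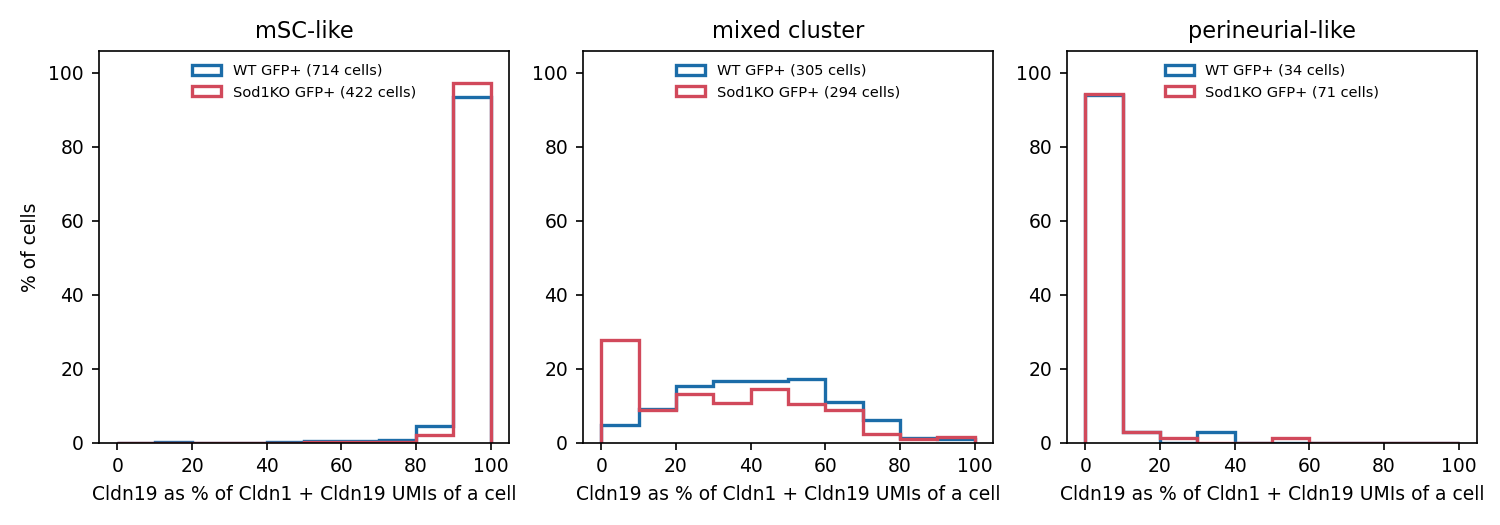
Percentage of cells (vertical) by the share of Cldn19 in the summed Cldn1 and Cldn19 UMIs of a cell (horizontal, bins of 10%), for cells with at least 5 such UMIs in the GFP+ libraries. mSC-like cells pile up at the right and perineurial-like cells at the left. Mixed cells of WT spread between them, with a median of 41.4% and 15 of 305 cells under 10%. Mixed cells of Sod1KO had a median of 29.7%, and 82 of 294 lay under 10%, at the left end.

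Between the libraries, the log2 ratio of Cldn19 in the mixed cluster was −0.89 (−0.97 to −0.80), that of Tjp1 −0.63 (−0.71 to −0.55) and that of Cldn1 −0.43 (−0.49 to −0.36), all short of 2-fold. At Leiden resolution 2, 298 WT and 156 Sod1KO cells carried both marker lists, and a perineurial-like cluster led by Lgals7 and Tenm2, as the mixed cluster was, had 13 and 164 cells. In the former the ratios were −0.05 for Cldn19, −0.29 for Tjp1 and −0.10 for Cldn1. Cldn11 and Cldn15 went the other way past 2-fold, from 0.989 to 7.29 CPM (55 against 6 UMIs, log2 2.88, 1.67 to 4.39) and from 2.31 to 5.17 CPM (log2 1.16, 0.25 to 2.16). These 2 of 8 genes tested stood against 10.1% of all genes tested past 2-fold in the same cluster. A gene counts as tested when both libraries together held at least 20 of its UMIs. Under a filter of more than 1000 genes and under 5% mitochondrial UMIs, which left 277 WT and 166 Sod1KO cells, 0 of 6 genes were past 2-fold.

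Cldn5, the seal of endothelium, led the endothelial-like class in all 4 libraries. Its level was 809 CPM (784 to 836) in WT GFP+, 566 (545 to 589) in Sod1KO GFP+, 966 (943 to 989) in WT GFP- and 854 (843 to 866) in Sod1KO GFP-. The next of the compared classes lay 178-fold and 93.1-fold lower in the GFP+ libraries (tSC-like) and 52.0-fold and 117-fold lower in the GFP- libraries (fibroblast-like). The GFP+ leads were over 5 classes, those in GFP- over only 2 in WT and 3 in Sod1KO. Lymphatic endothelial-like cells, which were kept apart, had 867 CPM in 5 cells of WT GFP+, 1157 in 8 of Sod1KO GFP+, 1228 in 15 of WT GFP- and 1337 in 107 of Sod1KO GFP-. Pericyte-like cells, named from markers of the cells that wrap capillaries, had 20.2 to 38.7 CPM. Several clusters without a class name also held Cldn5. One of 897 cells, with 7 of 7 pericyte and 8 of 10 endothelial markers, had 520 CPM (10311 UMIs). Others, of 490 and 250 cells, had 847 CPM (9310 UMIs) and 637 CPM (1160 UMIs). Whether such cells are single cells or joined ones was not tested. Thinned shares of endothelial-like cells with a Cldn5 UMI were 43.3% (37.7 to 49.1), 34.1% (28.8 to 39.8), 56.1% (51.6 to 60.5) and 49.4% (46.9 to 51.9) in the order of libraries above. No thinned perineurial-like cell had one, where 3 cells allowed for a count of 0 make 7.14% of 42, 3.16% of 95 and 2.75% of 109 cells. Unthinned, endothelial-like cells had 78.2%, 66.9%, 92.9% and 89.2%, and perineurial-like cells 0%, 0% and 3.67% (4 of 109, Sod1KO GFP-).

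Along the vessel tree the levels of Cldn5 followed the order arterial, capillary, other. The arterial cluster (7 of 7 arterial markers) had 1464 CPM (1390 to 1542) for WT and 1201 (1118 to 1288) for Sod1KO in the GFP+ sort, then 1545 for WT and 1365 for Sod1KO in the GFP- sort. The capillary cluster had 1062, 724, 863 and 827 CPM in this order. Cluster 22, which is led by Esm1 and Plvap and met no division's markers, had 160 in WT GFP+, 308 in Sod1KO GFP+ and 178 in Sod1KO GFP-, and the venous cluster had 57.3, 80.4 and 202. Intervals of the arterial and capillary clusters did not overlap in any library. Between the GFP+ libraries the log2 ratio of the class was −0.52 (−0.59 to −0.44), with −0.55 in the capillary cluster, −0.29 in the arterial one and 0.94 (0.70 to 1.18) in cluster 22. In cluster 22 the 7 pericyte markers, all over 20 CPM, were summed to 4077 CPM, against 1545 in the capillary and 1346 in the arterial cluster, and the endothelial markers to 5919, against 9232 and 9001; the part of these markers in its Cldn5 level was not tested. Between GFP- libraries the ratio was −0.18 (−0.22 to −0.14).

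Cldn15, a claudin best known from the intestine, was compared between 5 classes in the GFP+ libraries, 2 in WT GFP- and 3 in Sod1KO GFP-. In 3 libraries its highest level among these was in endothelial-like cells, from far fewer UMIs than Cldn5. In endothelial-like cells Cldn15 was at 28.4 CPM (23.7 to 33.6) in WT GFP+, 8.12 (5.72 to 11.2) in Sod1KO GFP+, 30.5 (26.5 to 34.9) in WT GFP- and 19.8 (18.1 to 21.7) in Sod1KO GFP-. The library labelled Sod1KO was lower in both sorts, by 1.80 on the log2 scale (−2.37 to −1.27) in GFP+ and by 0.62 (−0.86 to −0.38) in GFP-. In the GFP+ sort the direction was the same in the capillary cluster (33.0 to 11.3 CPM), the arterial cluster (33.4 to 10.9) and cluster 22 (24.6 to 3.21), while the venous cluster had 6.88 and 8.55 CPM from 3 and 5 UMIs. Over the alternatives tried, the GFP+ log2 ratio ranged from −1.82 to −1.49. Cldn15 was the 1 of 4 genes past 2-fold in GFP+ endothelial-like cells, where 4.47% of all genes tested were. In Sod1KO GFP+ it was highest in fibroblast-like cells instead, at 11.3 CPM (9.19 to 13.7), an order that turned under 2 of the alternatives. Pericyte-like cells had 21.8 CPM (9.95 to 41.3), 6.73, 28.1 (16.1 to 45.6) and 28.1 (21.1 to 36.8) in the same library order, so in Sod1KO GFP- they stood above endothelial-like cells, with intervals that touched (18.1 to 21.7 against 21.1 to 36.8).

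In GFP- endothelial-like cells 3 of 8 genes were past 2-fold (9.11% of all genes tested), all at low levels. Cldn1 was at 4.60 CPM in WT and 0.340 in Sod1KO (log2 −3.76, −5.09 to −2.61). All 32 WT UMIs lay in the arterial cluster, at 20.7 CPM (14.2 to 29.2) from 153 cells, where Sod1KO GFP- had 1 UMI in 348 cells, WT GFP+ 1 in 67 and Sod1KO GFP+ 0 in 52. Those UMIs came from 22 cells with at most 5 each, so no single cell decided the value. Cldn19 had 14 UMIs in WT and 15 in Sod1KO (log2 −1.66) and Cldn11 had 4 and 37 (log2 1.45, −0.03 to 3.40). Cldn12 in the class stood short of 2-fold but higher in Sod1KO in both sorts, by 0.63 (0.12 to 1.16) in GFP+ and 0.70 (0.36 to 1.06) in GFP- on the log2 scale. In the arterial cluster it was past 2-fold in both. There it went from 11.1 CPM in WT to 27.9 in Sod1KO in GFP+ (log2 1.32, 0.16 to 2.55). In GFP- it went from 8.41 to 22.5 CPM (1.42, 0.58 to 2.37). The capillary cluster had 0.41 (−0.49 to 1.32) and 0.63 (0.22 to 1.08).

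Tjp1, the scaffold beneath claudins and Ocln, was found at a sizeable level in all 5 classes. In WT GFP+ it was at 476 CPM (460 to 492) in mSC-like, 388 (330 to 453) in perineurial-like, 330 (314 to 347) in endothelial-like, 107 (99.3 to 116) in tSC-like and 54.0 (47.9 to 60.7) in fibroblast-like cells. The same order was seen in Sod1KO GFP+, at 452, 371, 314, 117 and 64.7 CPM. Neighbours at the top were close: mSC-like cells exceeded perineurial-like cells 1.23-fold (log2 0.29, 0.06 to 0.53) and 1.22-fold (log2 0.29, 0.14 to 0.43), and the interval of perineurial-like cells in WT GFP+ overlapped that of endothelial-like cells. In Sod1KO GFP- perineurial-like cells led the 3 classes compared there, at 600 CPM (569 to 633), above endothelial-like cells at 370. Ratios between the GFP+ libraries stayed within −0.07 and 0.26 in the 5 named classes. Within endothelium the capillary cluster had 449 CPM in WT GFP+, against 306 in the arterial, 211 in cluster 22 and 193 in the venous cluster, an order unlike that of Cldn5, for which the arterial cluster led.

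Cldn12, a claudin with a wide distribution, ranged only from 7.11 to 19.1 CPM over the 5 named classes in the libraries with at least 30 cells of the class. Its top class led the next by 0.20 (−0.23 to 0.63) on the log2 scale in WT GFP+ and 0.40 (−0.10 to 0.91) in Sod1KO GFP+, which are intervals that span 0. Cldn10, known from ion-transporting epithelia, was highest among the compared classes in fibroblast-like cells, at a low level. A shallow cluster of 912 cells with 7 of 10 fibroblast markers received no class name and is outside these values. It had Cldn10 at 26.4 CPM (127 UMIs). The GFP- libraries compared only 2 classes in WT and 3 in Sod1KO. In Sod1KO GFP+ the lead over perineurial-like cells (6 UMIs) was 0.59 (−0.62 to 2.09) on the log2 scale, which also spans 0. In fibroblast-like cells Cldn10 had 20.9 CPM (17.2 to 25.3) in WT GFP+, 6.52 (4.96 to 8.41) in Sod1KO GFP+, 15.7 (7.84 to 28.1) in the 37 cells of WT GFP- and 3.74 (2.70 to 5.06) in Sod1KO GFP-. Both sorts were lower in Sod1KO, with log2 ratios of −1.68 (−2.17 to −1.21) and −2.07 (−3.05 to −0.96). By the mean over cells the GFP+ ratio was −0.66, short of 2-fold. By cluster of the GFP+ sort, Cldn10 went from 23.7 to 10.7 CPM in cluster 4 (led by Myoc) and from 29.9 to 3.26 in cluster 20 (marked by Pi16), and was at 3.90 and 3.34 in cluster 13.

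Fibroblast-like cells of Sod1KO also differed in Cldn1. The class had 11.5 CPM (8.80 to 14.8) in WT GFP+ and 78.5 (72.9 to 84.5) in Sod1KO GFP+, and 2.86 (2 UMIs) in WT GFP- against 29.9 (26.8 to 33.2) in Sod1KO GFP-. The log2 ratios were 2.77 (2.39 to 3.17) and 3.39 (1.52 to 6.44). Most of these UMIs lay in cluster 13, led by Saa1, Cxcl14 and Gria1, where Cldn1 was at 35.1 CPM (25.6 to 47.0) in WT GFP+, 188 (174 to 202) in Sod1KO GFP+ and 212 (186 to 240) in Sod1KO GFP-; WT GFP- had 1 cell of it. Inside the cluster the log2 ratio of the GFP+ libraries was 2.42 (1.98 to 2.89), whereas cluster 4 had 6.51 and 8.16 CPM (0.33, −0.62 to 1.35). Cluster 13 passed 6 of 10 fibroblast markers and 4 of 8 markers of endoneurial fibroblasts, the connective tissue cells inside nerve fascicles, and cluster 4 passed 9 of 10 and 4 of 8. At resolution 2 a cluster with the same leading genes, of 80 WT GFP+ and 312 Sod1KO GFP+ cells, met the limits of an endoneurial fibroblast-like class, which is counted here among fibroblast-like cells. Cluster 13 also gave a larger part of the class in Sod1KO GFP+, 312 of 669 cells, than in WT GFP+, 80 of 265. In Sod1KO GFP+ the UMIs were spread, with 192 of 669 cells holding at least 1 and at most 17 in a cell. Thinned shares were 1.51% (0.413 to 3.82) in WT GFP+ and 8.60% (6.58 to 10.995) in Sod1KO GFP+, and the unthinned ones from 9.06% to 28.7% at median depths of 19275 and 13439 UMIs. Perineurial markers in the class were summed to 39.0 CPM for WT and 54.7 for Sod1KO in the GFP+ sort, with 0 of 10 over 20 CPM in either, and Ocln was at 0 and 0.221 CPM. Over all libraries together, these markers were summed to 81.1 CPM in cluster 13, with 1 of 10 over 20 CPM. Cluster 4 had 40.7 CPM with 0 of 10, and cluster 20 had 50.2 CPM with 2 of 10. The part of these markers in the Cldn1 level was not tested. Of 8 genes tested in the GFP+ class 3 were past 2-fold (Cldn1 higher, Cldn5 and Cldn10 lower), against 6.63% of all genes tested, and of 7 in the GFP- class 4 were (Cldn1 and Cldn11 higher, Cldn5 and Cldn10 lower), against 13.0%. Cldn5 rested on 12 and 8 UMIs in GFP+ and on 13 and 82 in GFP-, where 2 cells held over 50% of the 82, and Cldn11 in GFP- on 1 and 45. The endothelial markers in these cells were summed to 288 CPM in WT GFP- and 189 in Sod1KO GFP-, and their part in the Cldn5 values was not tested.

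**Figure D4:**
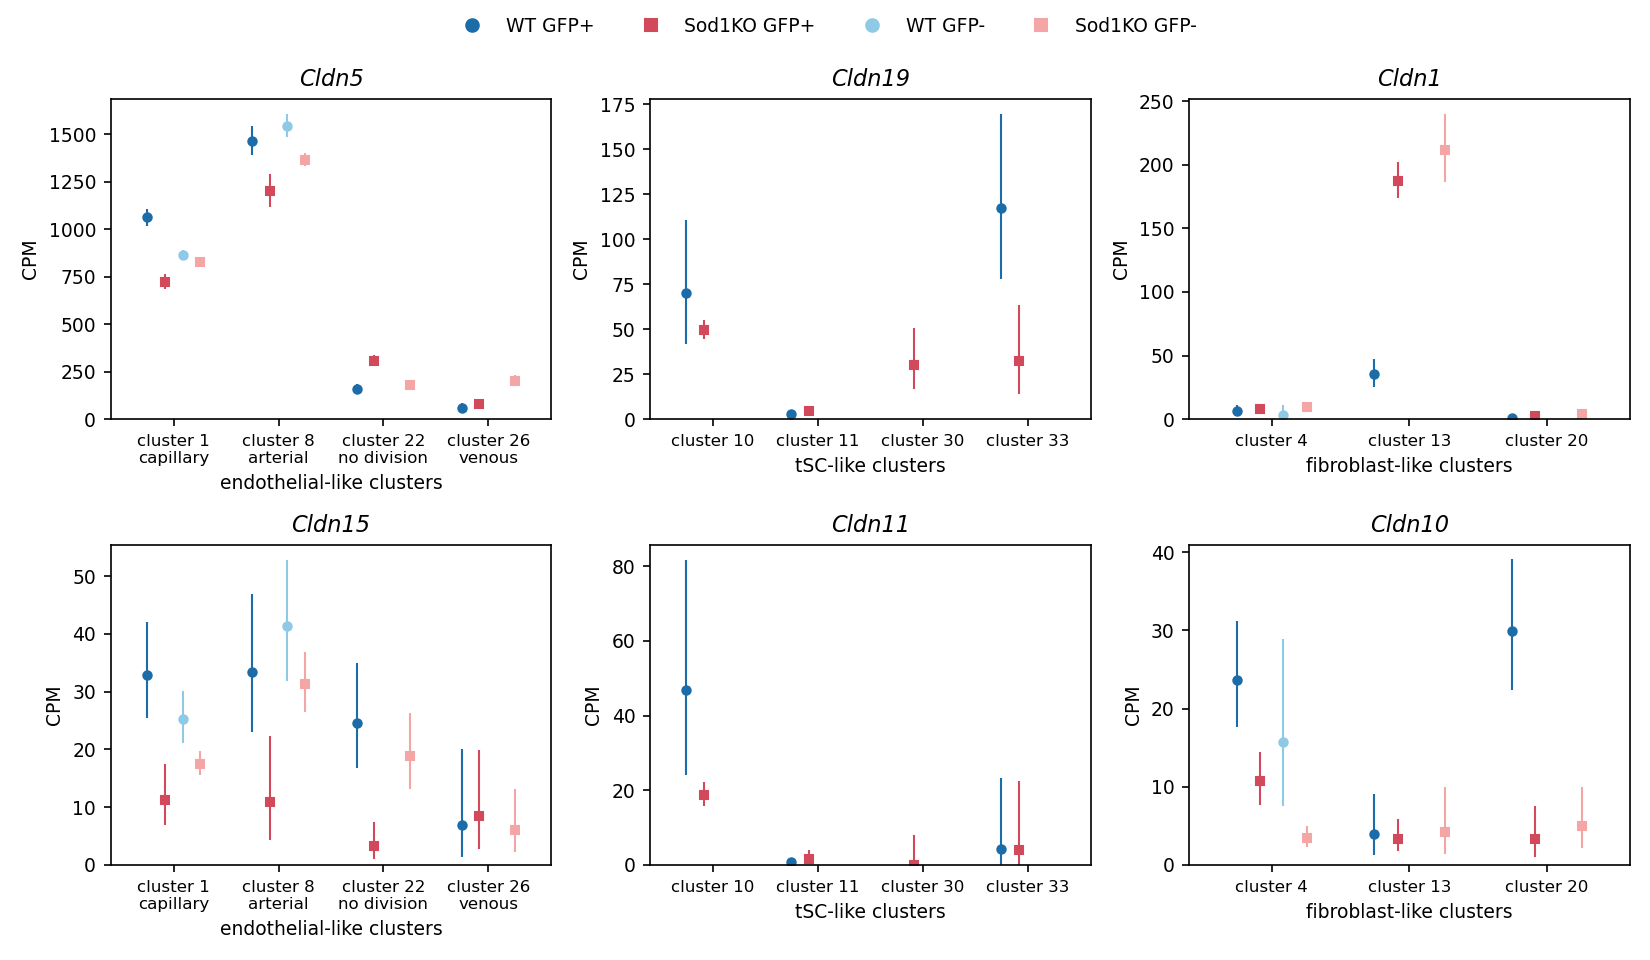
CPM of Cldn5 and Cldn15 in the 4 endothelial-like clusters, of Cldn19 and Cldn11 in the 4 tSC-like clusters and of Cldn1 and Cldn10 in the 3 fibroblast-like clusters, 1 point per library with at least 20 cells of the cluster and bars for the exact 95% Poisson interval. Cldn1 stands out in cluster 13, from 35.1 CPM in WT GFP+ to 188 and 212 in the Sod1KO libraries, and Cldn19 and Cldn11 are near 0 in cluster 11.

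For the remaining comparisons, 1 of 6 genes tested was past 2-fold in mSC-like cells (3.97% of all genes tested), 3 of 8 in tSC-like cells (11.7%) and 0 of 4 in perineurial-like cells (11.5%). The gene in mSC-like cells was Cldn1, at 14.5 CPM (103 UMIs) in WT GFP+ and 6.81 (30 UMIs) in Sod1KO GFP+ (log2 −1.09, −1.73 to −0.49); it was no longer past 2-fold by the mean over cells, and had the opposite sign, 0.72, with cells assigned one by one. In tSC-like cells Cldn10 was lower in Sod1KO, at 6.22 and 1.84 CPM (log2 −1.76, −2.62 to −0.93), beside the higher Cldn11 and Cldn19 described above, and with the clusters over 80% of 1 library left out 0 of 6 genes were past 2-fold, against 4.41% of all genes tested. Cluster 11 held 35 of the 37 Cldn10 UMIs of WT. Inside it Cldn10 was at 6.48 CPM in WT and 3.65 in Sod1KO (log2 −0.83, −1.95 to 0.18), short of 2-fold. Cluster 10 had 2 and 8 Cldn10 UMIs (log2 −2.80, −5.12 to 0.48). Medians of the log2 ratio over the genes tested were −0.30 in mSC-like, 0.08 in tSC-like, −0.13 in perineurial-like, −0.29 in GFP+ endothelial-like and 0.28 in GFP+ fibroblast-like cells, where the medians over all genes tested were −0.03, −0.03, 0.00, −0.02 and 0.03.

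**Figure D5:**
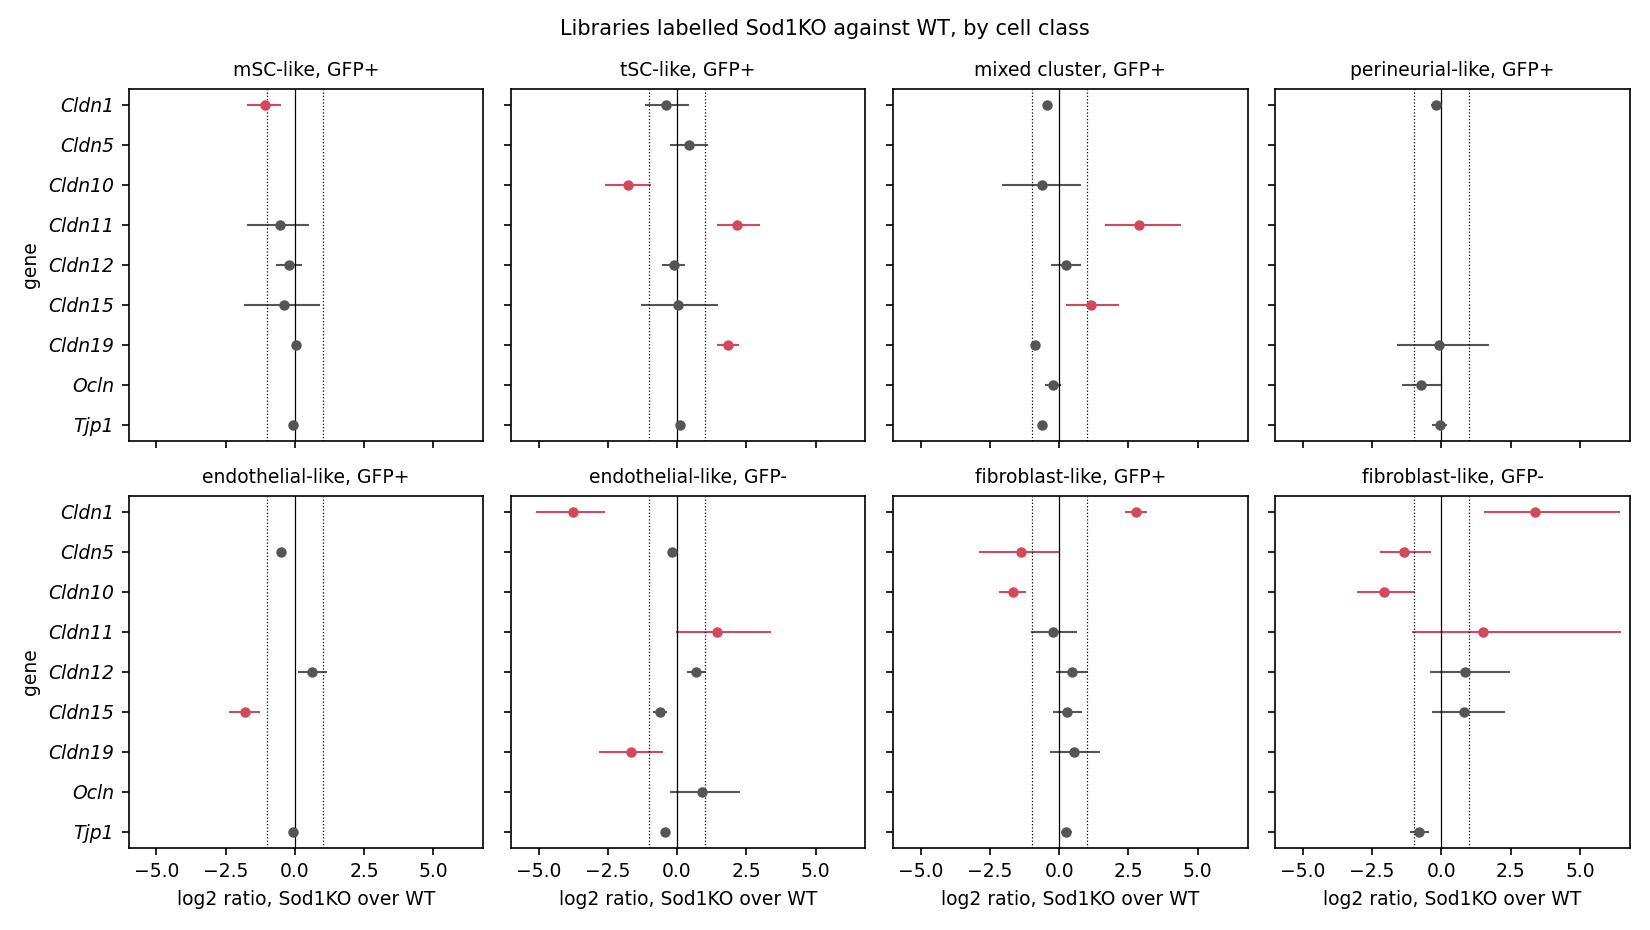
log2 ratio of Sod1KO to WT, in CPM, for each gene tested (vertical) in each class and sort, with exact 95% conditional intervals, a solid line at 0, dotted lines at 2-fold and red for genes past it. Cldn19 sits at 0.03 in mSC-like cells, Cldn1 at 2.77 in GFP+ fibroblast-like cells and Cldn15 at −1.80 in GFP+ endothelial-like cells.

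The lead of a claudin in its class was next set beside all genes. A gene was class-bound when it had at least 50 CPM in a class and at least 4 times the level of the next of the 5 classes in both GFP+ libraries. The mixed cluster was not among the 5 classes. Against it neither nerve claudin reached 4 times in WT GFP+, with Cldn19 at 975 and 453 CPM and Cldn1 at 815 and 628. The 9 genes were chosen with earlier results of these data known, so their shares below are descriptions only. In mSC-like cells 1 of 2 of the 9 genes at that level was (Cldn19), against 3.91% of all genes, in perineurial-like cells 1 of 2 (Cldn1), against 1.79%, and in endothelial-like cells 1 of 2 (Cldn5), against 6.3%. In tSC-like and fibroblast-like cells the 1 gene at that level, Tjp1, was not class-bound, where 2.82% and 2.73% of all genes were. Ocln met the fold in perineurial-like cells of both libraries, but the 50 CPM only in WT GFP+.

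Other genes of the same junctions came from 3 lists: 51 other tight junction genes, 11 transporters of nerve and brain barriers and 8 genes of other junctions in myelin. In perineurial-like cells 1 of 10 tight junction genes at 50 CPM or more was class-bound, Cgnl1 (paracingulin, an adaptor of junctions), at 327 and 315 CPM in WT and Sod1KO GFP+, and another claudin, Cldn22, met the limits only in WT GFP+, at 68.7 CPM against 36.9 in Sod1KO GFP+. Slc2a1, the glucose transporter GLUT1, was class-bound there too, but it was a naming marker. Endothelial-like cells had 2 of 10, the adhesion molecules Jam2 (489 and 388 CPM) and Esam (561 and 478), with Abcg2, an efflux pump (298 and 239), and Plvap, which forms the diaphragms of fenestrae (704 and 707), from 3 transporters at that level. In mSC-like cells 0 of 10 tight junction genes were, beside 3 of 7 genes of other myelin junctions, namely Gjb1 (connexin 32, 119 and 123 CPM), Cdh1 (E-cadherin, 101 and 127) and Nfasc (neurofascin, 275 and 390), and 1 of 1 transporter, Mfsd2a (a lipid transporter, 77.4 and 68.6). In tSC-like cells 0 of 8 and in fibroblast-like cells 0 of 7 tight junction genes were class-bound.

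The share of these genes past 2-fold between libraries differed by list, and is set beside the shares of all genes tested given above for each class. Among the other tight junction genes it was 1 higher and 2 lower of 25 tested in mSC-like cells, 1 and 0 of 25 in tSC-like, 1 and 0 of 20 in perineurial-like, 0 and 0 of 25 in GFP+ endothelial-like and 0 and 1 of 27 in GFP+ fibroblast-like cells, and 0 and 1 of 27 in the mixed cluster. In GFP- cells it was 1 and 3 of 27 in endothelial-like and 4 and 2 of 26 in fibroblast-like cells. With at least 100 UMIs, Cldn14 was higher in mSC-like cells of Sod1KO, at 28.6 CPM against 10.0 (log2 1.52, 1.08 to 1.96), and Cgnl1 lower, at 9.08 against 18.3 (−1.01, −1.56 to −0.49). In tSC-like cells the myelin junction genes Gjb1 (0.673 to 12.1 CPM, log2 4.17, 2.78 to 6.06) and Cdh1 (5.89 to 12.5 CPM, 1.09, 0.55 to 1.67) and the amino acid transporter Slc7a5 (4.88 to 10.0 CPM, 1.04, 0.44 to 1.69) were higher in Sod1KO, in a class made up of different clusters in each library. Mfsd2a was lower in the mixed cluster, at 24.7 and 8.22 CPM (−1.59, −2.04 to −1.15), Nfasc higher in GFP+ fibroblast-like cells, at 5.38 and 12.0 (1.16, 0.55 to 1.82), and Pard6g, a polarity gene, lower in GFP- endothelial-like cells, at 6.61 and 2.29 (−1.53, −2.12 to −0.93). In GFP- fibroblast-like cells, where WT gave 37 cells and 3 to 13 UMIs per gene, Magi1, Amot, Slc2a1, Slc7a5 and Slc16a1 were higher in Sod1KO by 1.04 to 1.75 on the log2 scale, and the interval of Amot reached below 0. Of the transporters 2 higher and 1 lower of 7 tested were past 2-fold in tSC-like (11.7% of all genes), 3 and 0 of 9 in GFP+ endothelial-like (4.47%), 1 and 0 of 7 in GFP- endothelial-like (9.11%), 3 and 0 of 7 in GFP- fibroblast-like cells (13.0%), 2 and 1 of 9 in the mixed cluster (10.1%) and 0 in mSC-like (8 tested), perineurial-like (5) and GFP+ fibroblast-like cells (8). Of the myelin junction genes 0 and 1 of 8 were in mSC-like (3.97% of all genes), 3 and 0 of 8 in tSC-like (11.7%), 1 and 0 of 4 in GFP- endothelial-like, 1 and 0 of 6 in GFP+ fibroblast-like cells and 0 in the other 4 comparisons.

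The genes whose profile was most like each of the 9 were taken by Pearson correlation of log2(CPM + 10) over 23 sums of a class in a library, from 10 classes, among 13700 genes. The points share libraries and depth, so r is a description only. Cldn19 was near to Dusp15 (r = 0.995) and Fa2h (0.993), which was a naming marker and makes hydroxylated myelin lipids. Cldn1 was nearest to Klf5 (0.979), Galnt12 (0.973) and Tenm2 (0.971), and Ocln to Efnb3 (0.988), Wnt10a (0.987) and Vill (0.985). For Cldn5 the nearest were Tie1 (0.995), an endothelial receptor used in naming, Arap3 (0.994) and Btnl9 (0.994), and for Tjp1 the laminin receptor subunit Itga6 (0.957), Ctnnb1, which encodes β-catenin (0.911), and Klf16 (0.902). The weaker genes had looser partners: Cldn11 with Prkcz (0.925), Dtx1 (0.916) and Rep15 (0.915), Cldn15 with Arpc4 (0.924), Mndal (0.890) and Nrp1 (0.881), Cldn10 with Tmeff1 (0.877), Bmp7 (0.869) and Gm26771 (0.867), and Cldn12 with Mir17hg (0.829), Khdc4 (0.803) and Strada (0.765).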

How the data were processed

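Skeletal muscle cells in 4 droplet libraries (10x Genomics, 3' tags with UMIs) were analysed from the UMI counts per gene and cell barcode that the authors deposited for each library. Per the labels' processing notes the tools were Cell Ranger 7.1.0 and Seurat 4.30 with build mm10; the study's methods describe removal of free RNA, doublets and damaged cells as later steps, while the deposited tables hold whole counts and barcodes that fail that cell filter. The study's methods name a further Cell Ranger version and build, and the samples are described as processed in 1 batch. Depth was 21959719 to 105954116 UMIs per library.

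Cells with more than 200 genes and under 10% mitochondrial UMIs were kept. Doublets were scored by the share of simulated doublets among 50 neighbours, and the top 0.8% per 1000 barcodes was removed (27 to 366 cells per library). The 37 clusters came from 2000 variable genes, 30 components, 20 neighbours and Leiden resolution 1, without the 9 genes and the listed tight junction genes, so their level made no class. A class needed 3 markers above 20 CPM and 2 times above their mean in all other clusters. A cluster was left unnamed or called mixed when it had 50% or more of the markers of another class, or more of them among its top 10 genes. Exempt were classes of the same family (Schwann, endothelial, mural or fibroblast) and lists with fewer than 3 passed markers beyond shared ones. Shallow clusters with no marker of their class among the top 10 genes were also left unnamed. These limits were set after the clusters had been seen, and names may differ from the study's.

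CPM was the summed count of a gene over the total of the cells of a class. A ratio set counts of 0 to 3 UMIs. Intervals (95%) were exact Poisson for levels, Clopper-Pearson for shares and conditional binomial for ratios. A gene counted as past 2-fold with at least 20 UMIs in both libraries together; 1 library per group allowed no test. Reads per gene were not scaled by length, so levels are not compared between genes. Simulated counts with known changes were used to check the ratios. Besides the 9 genes, listed genes were named when at 50 CPM and 4 times the next of 5 classes, or past 2-fold with at least 100 UMIs, and the 3 most similar genes of each were named among those with at least 500 UMIs. Some genes that these rules would name are not reported here. The 9 genes and the lists were chosen with earlier results of these data known. Alternatives were a stricter filter, no doublet removal, the 9 genes among the clustering genes, resolution 2, assignment cell by cell, subtraction of free RNA at 5%, the mean over cells, median-ratio scaling, another floor and leaving out clusters over 80% of 1 library.

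The steps ran in Python 3.11.15: numpy 2.4.6 and pandas 2.3.3 held the tables, scipy 1.17.1 gave the intervals, scikit-learn 1.9.0 the components and neighbours, igraph 0.11.9 with leidenalg 0.10.2 the clusters, and matplotlib 3.10.9 the plots.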

Additional observations from a re-analysis of the deposited data

Results flagged for a closer look

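Tjp1 in fibroblast-like cells moved in opposite directions between the genotypes in the 2 sorts. The log2 ratio of Sod1KO over WT was 0.26 in GFP+ (54.0 and 64.7 CPM) and −0.80 in GFP- (120 CPM in WT, from 37 cells, and 68.9 in Sod1KO). The difference between the sorts was not tested.

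Some clusters that received no class name held a gene above its highest level in any of the 5 compared classes. Cldn10 was at 26.4 CPM (127 UMIs) in a cluster of 912 cells led by Mlana, Inmt and Gdf10, against 20.9 CPM in the highest class. That cluster passed 7 of 10 fibroblast markers and was left unnamed as shallow. Cldn15 was at 31.3 CPM (57 UMIs) in a cluster of 250 cells, 88.8% of them from WT GFP-, against 30.5. Cldn12 was at 35.7 CPM (29 UMIs) in a cluster of 152 cells led by Dach1, Atp12a and Mecom, against 19.1.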

How the results depend on the processing

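No paired analysis was possible because each group is 1 library and no result comes from a test. Over all alternatives, the lead of the top class over the next class stayed within its counting interval in 93 recomputed values, moved in 28 and turned in 5. The number of genes past 2-fold kept within 1.5 times in 68 and moved in 11. Ratios kept in 447 and moved in 49; of those past 2-fold, 3 turned, and of those short of 2-fold, 11 took the other sign under at least 1 alternative (16 values). Without thinning, 44 shares moved and 24 did not.

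In WT GFP+ the log2 lead of the top class for Cldn1 was 5.42 without doublet removal, 5.27 at resolution 2, 4.71 with cells assigned one by one and 6.15 with free RNA subtracted. For Cldn5 it was 3.74 without doublet removal, 5.23 cell by cell, 10.64 with free RNA subtracted and 8.59 by the mean over cells. For Cldn19 it was 4.93, 3.43 and 1.12 without doublet removal, at resolution 2 and cell by cell, and for Ocln 4.62 cell by cell. In Sod1KO GFP+ the lead of Cldn1 was 2.53 under the stricter filter, 2.74 at resolution 2, 3.33 cell by cell and 2.71 by the mean over cells; that of Cldn5 was 3.78 without doublet removal, 5.04 cell by cell and 7.45 with free RNA subtracted; that of Cldn19 was 4.30, 3.65, 1.99 and 4.95 without doublet removal, at resolution 2, cell by cell and with free RNA subtracted; and that of Ocln was 2.79 under the stricter filter. The order turned for Cldn11 in WT GFP+ (−0.13 under the stricter filter, −0.55 cell by cell, −0.71 by the mean over cells) and for Cldn15 in Sod1KO GFP+ (−0.030 under the stricter filter, −0.41 cell by cell).

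Genes past 2-fold numbered 0 in mSC-like cells by the mean over cells and 0 in tSC-like cells without the clusters over 80% of 1 library. In the mixed cluster they were 0 under the stricter filter, 1 without doublet removal and 0 at resolution 2. They were 1, 1 and 2 in perineurial-like cells without doublet removal, at resolution 2 and cell by cell, 2 in GFP+ endothelial-like cells without doublet removal, and 5 and 1 in GFP+ fibroblast-like cells under the stricter filter and by the mean over cells. The ratio turned for Cldn1 in mSC-like cells (0.72 cell by cell), for Cldn19 in tSC-like cells (−0.21 without the clusters over 80% of 1 library) and for Cldn11 in GFP- fibroblast-like cells (−0.095 with counts of 1 and 2 set to the floor, which raises the 1 UMI of WT). For the others the cause was not tested.

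Ratios held their direction under every alternative run for Cldn1 in GFP+ fibroblast-like cells (2.41 to 3.39), Cldn15 in GFP+ endothelial-like cells (−1.82 to −1.49), Cldn10 in GFP+ fibroblast-like cells (−1.71 to −0.66) and Cldn11 in tSC-like cells (1.64 to 2.56). For Cldn11 the alternative without the clusters over 80% of 1 library gave no ratio to compare, since under 20 UMIs were left. Inside cluster 10, which held 134 of its 140 Sod1KO GFP+ UMIs in tSC-like cells, the Cldn11 ratio had the opposite sign (−1.32, −2.17 to −0.33). Median-ratio scaling shifted no class by 0.1 or more on the log2 scale. Low counts limit Ocln outside perineurial-like cells and the mixed cluster, and every WT GFP- value of perineurial-like (6 cells) and fibroblast-like (37 cells) classes.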
